A study of Homo sapiens with 20 samples.

Results

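L363 BtzR, a bortezomib-resistant form of the plasma cell leukaemia line L363 that serves as a model of multiple myeloma, was compared with its parental line, L363 WT. The comparison rests on 4 of the 20 RNA-seq libraries of the series, those whose labels name L363 WT and L363 BtzR, with 2 biological replicates in each group. L363 BtzR cells were grown in 90 nM bortezomib and L363 WT cells without a resistance drug, both in RPMI-1640 medium, so that the response to the drug in the medium and the acquired state of the line cannot be told apart. A second derivative, L363 CfzR, was grown in 90 nM carfilzomib (2 libraries), and bortezomib-resistant and parental cells of AMO1 and RPMI-8226, other established myeloma lines, were each sequenced in 2 libraries, as were those of ARH-77, a B-lymphoblastoid line. Each resistant group is a single derived line, and what belongs to resistance and what belongs to the history of that line cannot be told apart either.

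The proteasome degrades ubiquitin-tagged proteins in its 20S core, whose cutting sites lie on the subunits PSMB5, PSMB6 and PSMB7. Bortezomib, a boronate, and carfilzomib, an epoxyketone, both act mainly on PSMB5, the chymotrypsin-like site. Plasma cells secrete large amounts of immunoglobulin and carry a heavy load of misfolded protein, which is the usual account of why proteasome inhibitors are used against myeloma.

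Expression was given as FPKM, fragments mapped to a gene, scaled to the length of its transcript and to all mapped fragments. No read counts were used and the depth of the libraries is unknown. Each of the 4 libraries summed to 462467 to 494850 FPKM, with 10515 to 10616 genes at 1 FPKM or above. Pearson r of log2(FPKM + 1), taken over genes, was 0.997 between the WT replicates and 0.996 between the BtzR replicates, against 0.975 to 0.976 between BtzR and WT and at most 0.859 between BtzR and the WT cells of another line. Of the 12 plasma cell markers, 11 lay above 1 FPKM, among them SDC1, CD38, XBP1, IRF4, PRDM1 and JCHAIN, and none of them was called between BtzR and WT. Of 16 genes that set L363 WT apart from the other lines, 15 reached 1 FPKM in both BtzR libraries, while 0 of 9 such genes of AMO1 and 0 of 42 of RPMI-8226 did. The libraries thus carried the expression of the line and cell type on their labels.

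A gene was called when its Benjamini-Hochberg adjusted p fell under 0.05 and its log2-fold change was at least 1 in size. Fold changes are differences of mean log2(FPKM + 1), BtzR minus WT, a scale that understates the change of genes near or under 1 FPKM. Of 10801 genes with a mean of at least 1 FPKM in either group, 270 were called (2.50%), 133 higher in BtzR (1.23%) and 137 lower (1.27%). Of these, 25 rose by 2 or more and 27 fell by 2 or more on the log2 scale. The median over all tested genes was 0.00 and the quartiles were -0.15 and 0.15. In all 270 called genes the BtzR libraries lay on 1 side of both WT libraries, which was also so for 34.2% (above) and 33.2% (below) of all tested genes whatever their p. In bulk RNA fewer expressing cells and less RNA per cell cannot be told apart in any of these genes.

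PSMB5, the subunit that bortezomib inhibits, was higher in BtzR. Its level was 60.08 and 53.01 FPKM in the WT libraries and 192.25 and 187.39 FPKM in the BtzR libraries. It therefore lay at 56.5 ± 5.0 FPKM (SD, n = 2) in WT and was 3.36-fold higher on the mean in BtzR. The difference was 1.73 ± 0.17 (log2, SE, adjusted p = 4.1e-06), and no BtzR library overlapped with WT. In CfzR, whose drug acts on the same subunit, PSMB5 stood at 66.36 and 58.07 FPKM, within 0.14 of WT on the log2 scale (adjusted p = 0.769) and lower than in BtzR by 1.60 ± 0.17 (adjusted p = 1.6e-05).

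The other catalytic subunits did not share the rise. PSMB6, the caspase-like subunit, was at 70.94 and 64.38 FPKM in WT and 71.56 and 59.76 FPKM in BtzR (log2 difference -0.05 ± 0.12, adjusted p = 0.849). PSMB7, the trypsin-like subunit, was at 150.3 and 143.63 FPKM in WT and 130.65 and 131.03 FPKM in BtzR (-0.17 ± 0.10, adjusted p = 0.311). Of the 11 structural subunits of the 20S core, 0 were called, and their median log2 difference was -0.27. The exception in direction was PSMB1, which stood at 80.23 and 77.13 FPKM in WT and 141.51 and 127.6 FPKM in BtzR, a difference of 0.76 (adjusted p = 2.8e-05) that fell short of the fold threshold. The 18 subunits of the 19S regulatory particle, which unfolds substrates, ranged from -0.51 to -0.05 with 0 called, and the 5 immunoproteasome and PA28 genes from -0.44 to -0.09 with 0 called. Assembly factors, ubiquitin genes and the NRF1 axis, which drives all proteasome genes together when the proteasome is inhibited, had 0 of 18 called and a median of -0.17. PSMB5 was thus the 1 gene of these proteasome lists that was called.

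PSMB5 did not move alone on its chromosome. When tested genes were placed in their RefSeq order, PSMB5 was the eighth of 9 consecutive genes on chromosome 14, from LRP10 to CDH24, that all had a log2 difference of at least 0.5. Such runs, of at least 6 neighbouring genes that differ by 0.5 or more in 1 direction, were defined after the values had been seen and are given as a description. A difference of that size was shared by 4.47% of all tested genes upwards and 4.37% downwards. In this run the median was 1.75, 8 of 9 genes were called, and all 9 were separated between the groups. MRPL52, the tested gene just before the run, differed by -0.28 and ACIN1, just after it, by 0.24, so the run had sharp ends on both sides.

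The largest difference of the run was that of CDH24, a cadherin, which was at 2.52 and 3.1 FPKM in WT and at 84.05 and 79.71 FPKM in BtzR (4.45 ± 0.14, adjusted p = 8.9e-12). PRMT5, an arginine methyltransferase that acts on histones and splicing factors, rose from 72.09 and 74 FPKM to 243.58 and 256.48 FPKM (1.76 ± 0.17, adjusted p = 2.6e-06) and was the second most abundant of all genes called higher. HAUS4, of the augmin complex of the mitotic spindle, rose by 2.03, RBM23, an RNA-binding protein, by 1.81, AJUBA, a LIM protein that restrains Hippo signalling kinases, by 1.75, LRP10, an endocytic receptor, by 1.59 and C14orf93 by 1.10. REM2, a small GTPase, was near the detection limit at 0.49 and 0.33 FPKM in WT and 1.34 and 1.29 FPKM in BtzR and was not called. Apart from CDH24 the 8 genes differed by between 0.72 and 2.03. In CfzR the same 9 genes lay between -0.06 and 0.41 of WT with 0 called, against 2.10% of all tested genes (1.10% higher, 1.00% lower). Between BtzR and CfzR directly 8 of 9 were called, against 1.55% of all tested genes. The run was chosen by its level in the same BtzR libraries, which favours such calls, so that count is a description.

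**Figure D1:**
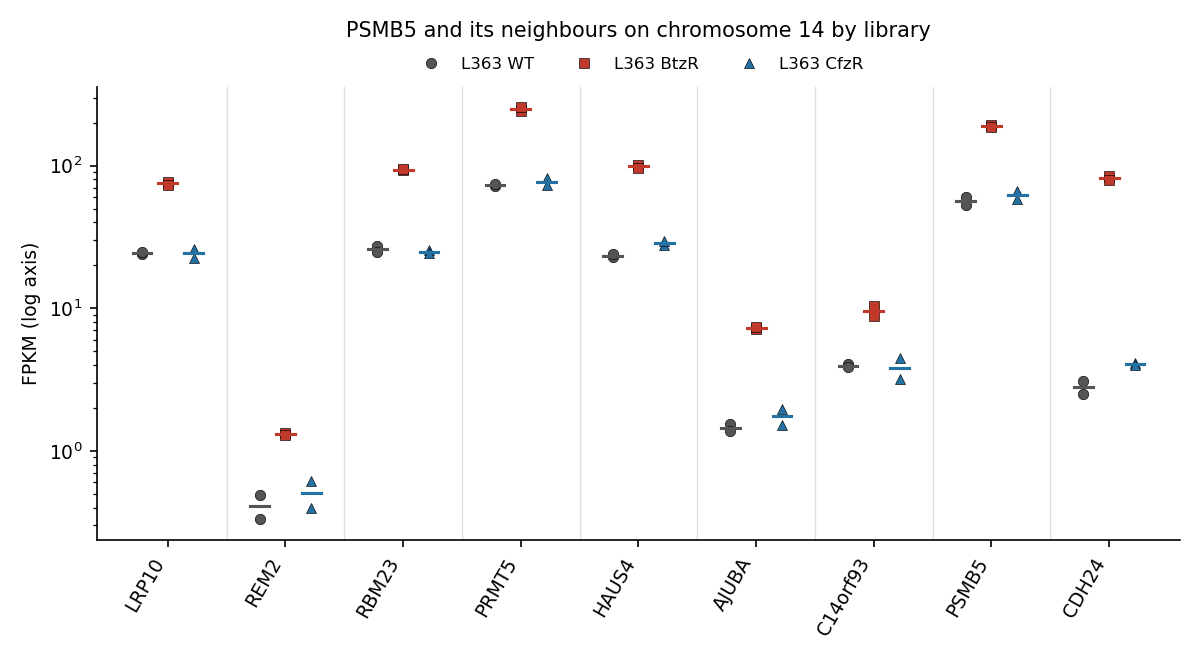
FPKM (log axis) of the 9 genes from LRP10 to CDH24 in chromosome order, with 1 point for each library of L363 WT, BtzR and CfzR and a bar at the mean of the 2 replicates. In every gene both BtzR libraries lie above the WT and CfzR libraries, as for PSMB5 at 192.25 and 187.39 FPKM against 53.01 to 66.36 FPKM.

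A second and longer run lay further along chromosome 14, from C14orf28 to TMX1. It held 27 tested genes with a median of 1.25 and a range of 0.62 to 3.12, of which 17 were called and all 27 had an adjusted p under 0.05, which the rule of the run in part fixes. Between the 2 runs were 71 tested genes with a median of -0.08, none of them called and none at 0.5 or more. Of the 219 tested genes between the second run and the last of the chromosome, 2 were called higher and 3 lower. Chromosome 14 thereby held 27 of the 133 genes called higher, or 7.67% of its 352 tested genes.

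The largest differences of the second run were at its far end. NIN, which encodes ninein, an anchor of microtubules at the centrosome, rose from 7.66 and 8.19 FPKM to 73.94 and 78.96 FPKM (3.12 ± 0.11, adjusted p = 1.4e-11). SAV1, the scaffold of the Hippo kinases, rose from 2.2 and 3.08 FPKM to 19.92 and 21.53 FPKM (2.59 ± 0.13, adjusted p = 3.2e-09). MAP4K5, a kinase upstream of JNK, rose from 8.67 and 9.03 FPKM to 54.59 and 59.82 FPKM (2.56 ± 0.09, adjusted p = 2.2e-11). These lay close to ATL1, an ER-shaping GTPase, which rose by 1.69. The near end was more even: FKBP3, a prolyl isomerase, rose by 1.65, C14orf28 by 1.47, FANCM, a DNA repair helicase, by 1.46, PRPF39, a splicing factor, by 1.32, TOGARAM1, a ciliary protein, by 1.28 and KLHL28 by 1.25. ATP5S rose by 1.43, CDKL1, a kinase, and TMX1, an ER oxidoreductase, by 1.25 each, SOS2, an activator of RAS, by 1.2, NEMF, a ribosome quality control factor, by 1.16 and PYGL, a glycogen phosphorylase, by 1.08. The abundant ribosomal protein genes RPS29 and RPL36AL, at 357.92 and 303.89 and at 322.94 and 331.91 FPKM in WT, differed by 0.90 and 0.91 and were not called.

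In CfzR the 27 genes had a median of 0.00 against WT and lay between -0.24 and 0.43, with 0 called. Between BtzR and CfzR 19 of 27 were called, a count that the choice of the run by its BtzR level again favours. In the bortezomib-resistant cells of AMO1 the median over the run was 0.44 with 2 of 27 called, against 8.02% of all tested genes. In those of RPMI-8226 it was 0.21 with 1 of 27 called, against 10.9% of all tested genes. In those of ARH-77 it was 0.71, with 8 of 27 called higher and none lower, against 0.556% and 0.417% of all tested genes. There FKBP3 rose from 23.73 and 22.15 FPKM to 48.29 and 52.55 FPKM (1.10 ± 0.09, adjusted p = 3.0e-06), TMX1 by 1.08 and NIN by 1.03. The effect in L363 differed from that in ARH-77 for 6 of 27 genes, NIN among them by 2.09, from that in AMO1 for 10 of 27 and from that in RPMI-8226 for 13 of 27. For the run that holds PSMB5 the medians were 0.67 in AMO1, 0.23 in RPMI-8226 and 0.10 in ARH-77. Of its 9 genes 3, 2 and 0 were called, beside the shares over all tested genes just given. Its effect in L363 differed for 4, 7 and 5 of 9 genes in that order. Over all tested genes the effect differed for 10.5% (AMO1), 12.6% (RPMI-8226) and 3.73% (ARH-77), but since the runs were chosen by their difference in L363 nothing is read from these shares.

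**Figure D2:**
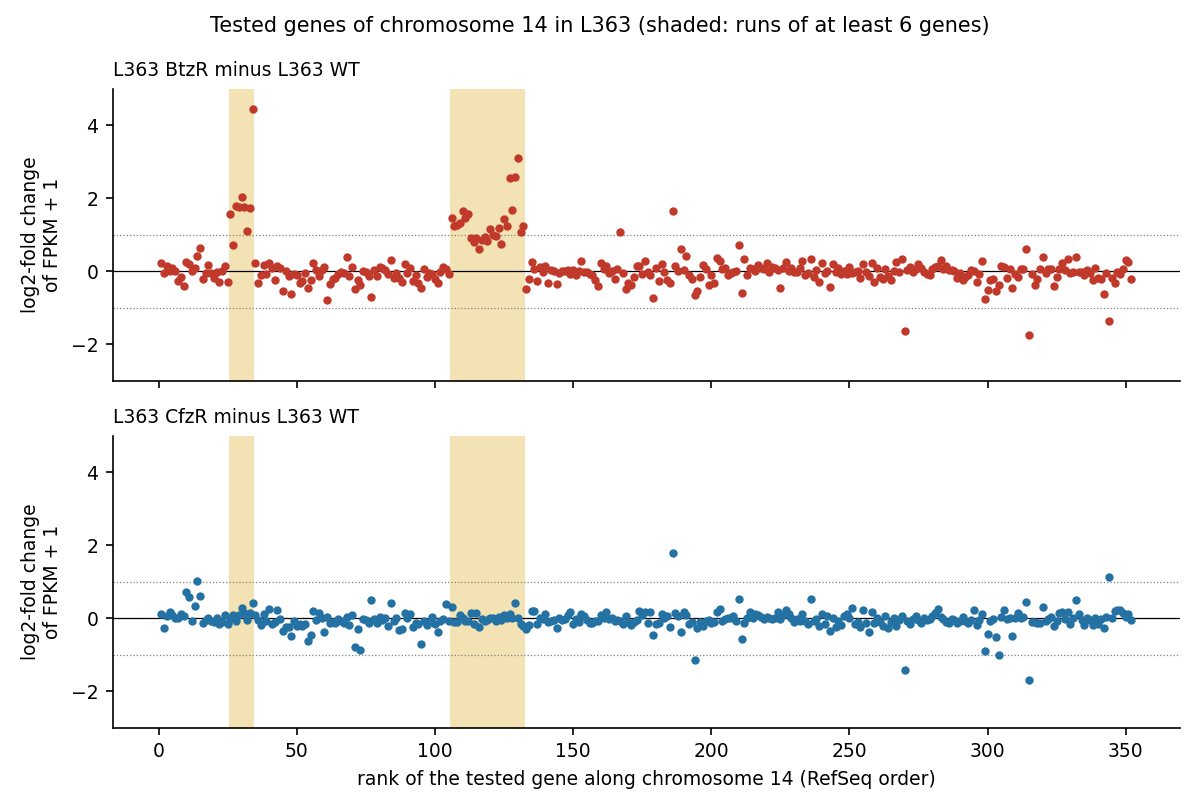
Log2-fold change of FPKM + 1 against WT for the 352 tested genes of chromosome 14, by their rank in RefSeq order, in L363 BtzR (upper panel) and L363 CfzR (lower panel), with the runs of 9 and 27 genes shaded and dotted lines at 1 and -1. In BtzR the shaded genes lie between 0.62 and 4.45 and the genes between the runs around -0.08, while in CfzR the shaded genes lie between -0.24 and 0.43.

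PSMB5 was called higher in 1 of the 3 other bortezomib-resistant lines, RPMI-8226. In RPMI-8226 it rose from 54.67 and 52.33 FPKM to 200.41 and 154.11 FPKM (1.70 ± 0.17, adjusted p = 1.0e-06), an effect that differed from the one in L363 by 0.03 ± 0.25 (adjusted p = 0.925). In AMO1 it went from 55.17 and 49.9 FPKM to 91.33 and 103.55 FPKM, a difference of 0.88 ± 0.17 that was short of the fold threshold (adjusted p = 6.5e-04). The L363 effect exceeded that of AMO1 by 0.85 ± 0.25 (adjusted p = 0.0122), which did not reach the threshold either. CDH24 rose in AMO1 and RPMI-8226 too, at 1.62 in AMO1 and 1.52 in RPMI-8226, but was larger in L363 by 2.83 and 2.93. NIN rose by 1.34 in AMO1 and differed by 0.92 in RPMI-8226, HAUS4 rose in AMO1 by 1.32 and differed by 0.23 in RPMI-8226, and PRMT5 differed by 0.66 and 0.16. In ARH-77 PSMB5 was at 71.58 and 43.22 FPKM in WT and at 100.22 and 88.8 FPKM in BtzR (0.75 ± 0.17, adjusted p = 0.0109), again short of the fold threshold, and CDH24 stayed under 1 FPKM in all 4 ARH-77 libraries.

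Lower runs were found on chromosome X, where they were shared with CfzR. From HTR2C to SEPTIN6 there were 10 genes with a median of -0.95 (4 called), from RPL39 to AIFM1 21 genes with a median of -0.93 (7 called), and from STK26 to FAM122B 7 genes with a median of -0.88 (2 called). The first 2 runs were parted by 1 gene, SOWAHD at -0.20, and the second and the last by 5 genes with a median of -0.95, among them SLC25A14 and RBMX2, which fell by 1.04 and 1.21. In CfzR the 3 runs had medians of -0.91, -0.87 and -0.97, and 0, 1 and 0 of their genes were called between BtzR and CfzR. In AMO1 they were 0.20, 0.10 and -0.04, and in RPMI-8226 0.05, 0.17 and 0.06. The 237 tested genes before the runs had a median of 0.04.

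The X-linked runs held 3 of the most abundant genes that fell in BtzR. RPL39, a ribosomal protein gene, was at 1525.64 and 1329.42 FPKM in WT and at 751.85 and 656.92 FPKM in BtzR, a difference of -1.02 ± 0.15 (adjusted p = 2.7e-04) that passed under the fold threshold without BtzR replicate 2 or WT replicate 1 (-0.92 each). SLC25A5, the main ADP/ATP translocase of proliferating cells, fell from 780.15 and 789.82 FPKM to 392.06 and 351.49 FPKM (-1.08 ± 0.07, adjusted p = 3.2e-08), which came to -1.0 and missed the threshold without BtzR replicate 2. NDUFA1, a complex I subunit and the only 1 of 33 tested respiratory chain genes to be called, fell from 283.72 and 250.04 FPKM to 119.67 and 110.88 FPKM (-1.20 ± 0.17, adjusted p = 1.2e-04). PGRMC1, a heme-binding membrane protein, fell by 1.23, C1GALT1C1, the chaperone of the core O-glycan enzyme, by 1.10, RNF113A, a splicing-linked ubiquitin ligase, by 1.04, SLC25A43 by 1.02 and MCTS1, a translation factor, by 1.00. Differences within the longest of these runs ranged from -1.74 in RAB33A, a small GTPase, to -0.64. The calls of C1GALT1C1 and SLC25A43 were lost without WT replicate 1, that of RNF113A without WT replicate 2 and that of MCTS1 without BtzR replicate 2, with differences of -0.98, -0.97, -0.94 and -0.97.

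**Figure D3:**
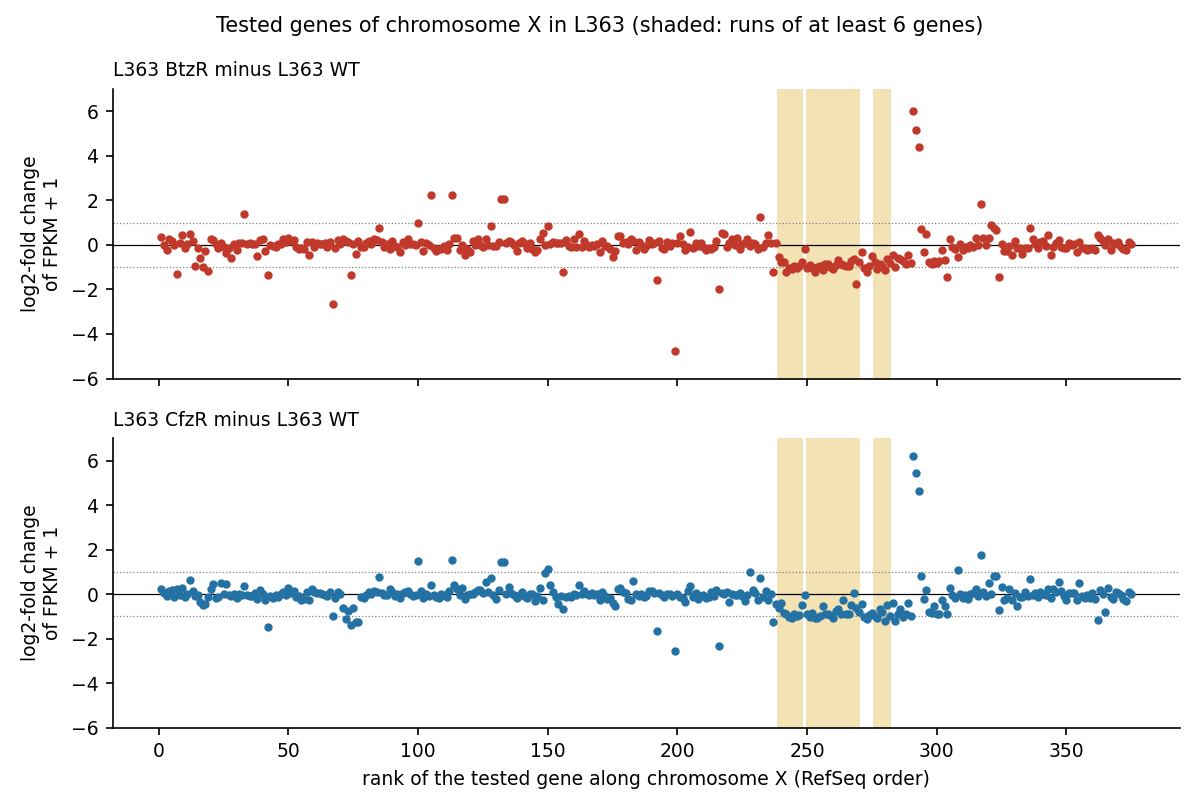
Log2-fold change of FPKM + 1 against WT for tested genes of chromosome X, by rank in RefSeq order, in L363 BtzR (upper panel) and L363 CfzR (lower panel), with the 3 runs shaded and dotted lines at 1 and -1. The shaded genes lie around -0.9 in both panels, with medians from -0.95 to -0.88 in BtzR, and CT45A1, CT45A3 and CT45A7 stand to their right between 4.41 and 6.20.

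Smaller runs were higher on 3 further chromosomes. On chromosome 12, 9 genes from ZNF384 to USP5 had a median of 0.79 and 8 genes from EMG1 to NECAP1 a median of 0.73, against 0.14 and 0.11 in CfzR. The first of them held CD4, a coreceptor of T cells that is also expressed by myeloid cells, which rose from 6.91 and 5.34 FPKM to 47.08 and 44.84 FPKM (2.73 ± 0.11, adjusted p = 1.2e-10) and was at 29.53 and 32.77 FPKM in CfzR. Its neighbours GPR162, an orphan receptor, and PTMS, a chromatin-binding acidic protein, rose by 1.70 and 1.03, and the call of PTMS was lost without BtzR replicate 1 (1.00) or WT replicate 1 (0.97). The tested genes between the runs of chromosome 12 ranged from -0.08 in PTPN6 to 0.87 in ATN1. GAPDH, ahead of the first run, differed by 0.70, and PHC1, past the second, by 1.54. The rule of the run thus parted a longer stretch of mostly raised genes. On chromosome 6, 8 genes from WDR27 to PDCD2 had a median of 0.87 and -0.01 in CfzR. PSMB1, the 20S subunit noted above, was the sixth of them, beside TBP, the TATA-binding protein, at 0.94. On chromosome 13, 7 genes from UTP14C to SUGT1 had a median of 0.58 with 0 called. In all, the 9 runs held 106 genes, 30 of the 133 called higher and 13 of the 137 called lower, and 2.12% of the genes outside them were called. By the same rule CfzR against WT had 0 higher and 5 lower runs, the longest of 14 genes, and AMO1 BtzR and RPMI-8226 BtzR had 11 and 21 higher and 31 and 10 lower runs, the longest of 17 genes each.

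CT45A1, of a cancer-testis family that is normally limited to the germ line, had the largest rise. It was at 1.55 and 0.3 FPKM in WT and at 120.59 and 114.29 FPKM in BtzR (6.02 ± 0.20, adjusted p = 1.1e-11). CT45A3 was listed at 0 in both WT libraries and was at 34.03 and 35.91 FPKM in BtzR (5.17 ± 0.13, adjusted p = 9.5e-13). CT45A7 rose from 3.07 and 3.49 FPKM to 95.84 and 84.72 FPKM (4.41 ± 0.12, adjusted p = 1.5e-12). These are adjacent, nearly identical copies on chromosome X whose reads can be split among them, so the levels of single copies are uncertain. PRAME, a melanoma antigen that represses retinoic acid signalling, rose from 0.72 and 0.73 FPKM to 29.14 and 29.83 FPKM (4.14 ± 0.13, adjusted p = 7.9e-12). All 4 were also called higher in CfzR, at 131.72 and 134.64, 46.79 and 37.42, 113.45 and 99.89, and 33.83 and 41.65 FPKM in the order given, and differed between BtzR and CfzR by -0.34 to -0.18 without a call.

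A list held 24 cancer-testis antigens, genes of the germ line that tumours can express. Of these 12 were tested, and 2 rose and 2 fell (against 1.23% and 1.27% of all tested genes), with a median of 0.32. The other to rise was XAGE1B, at 0 and 0.19 FPKM in WT and 4.25 and 2.92 FPKM in BtzR (2.06 ± 0.13, adjusted p = 2.6e-08), and its copy XAGE1A was listed with the same values. MAGEB2 fell from 9.24 and 10.16 FPKM to 0.62 and 0.73 FPKM (-2.67 ± 0.09, adjusted p = 1.9e-11) and MAGEC1 from 72.17 and 80.74 FPKM to 27.58 and 27.13 FPKM (-1.45 ± 0.09, adjusted p = 2.5e-08). The list therefore moved in both directions. SOHLH1, a transcription factor of spermatogonia and oocytes, rose from 0.61 and 0.44 FPKM to 21.1 and 18.03 FPKM (3.75 ± 0.12, adjusted p = 9.0e-12) and TEX9, a testis-expressed gene, from 1.74 and 0.86 FPKM to 13.97 and 13.82 FPKM (2.72 ± 0.18, adjusted p = 3.2e-08). Next to TEX9 on chromosome 15, MNS1, needed for sperm flagella, rose by 1.61. TEX19, a testis gene at 47.13 and 47.63 FPKM in WT and 107.28 and 115.25 FPKM in BtzR, differed by 1.21 but kept its call in 1 of the 4 fits that left out a library.

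TNR and APBB1IP completed the 12 largest rises. TNR, the extracellular matrix protein tenascin-R of the nervous system, was at 0.01 FPKM in each WT library and at 10.63 and 10.43 FPKM in BtzR (3.51 ± 0.08, adjusted p = 4.4e-13), and was listed at 0 in both CfzR libraries. APBB1IP, an adaptor between RAP1 and talin in integrin activation, rose from 0.77 and 0.62 FPKM to 10.41 and 11.15 FPKM (2.80 ± 0.12, adjusted p = 3.7e-10) and was at 2.2 and 3.25 FPKM in CfzR. In AMO1 and RPMI-8226 it fell by 4.39 and 5.56 with bortezomib resistance. LEFTY2, a secreted TGF-beta family member, was the most abundant gene called higher, at 164.64 and 145.93 FPKM in WT, 361.04 and 327.23 FPKM in BtzR and 295.5 and 375.26 FPKM in CfzR (1.14 ± 0.12 in BtzR, adjusted p = 6.0e-06).

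ITM2A, a membrane protein of lymphocytes and cartilage, had the largest fall, from 31.74 and 26.28 FPKM to 0.07 and 0.16 FPKM (-4.75 ± 0.19, adjusted p = 9.8e-11). LRMP, an ER membrane protein of lymphocytes, fell from 21.92 and 23.74 FPKM to 0.22 and 0.25 FPKM (-4.27 ± 0.26, adjusted p = 1.8e-08). CDKN1A, the cyclin-dependent kinase inhibitor p21, fell from 32.76 and 36.46 FPKM to 1.16 and 1.67 FPKM (-3.89 ± 0.40, adjusted p = 4.4e-06). These 3 were lower in CfzR too, by 2.53, 1.64 and 2.35, and lower in BtzR than in CfzR by 2.21, 2.63 and 1.54. CDKN1A was the only gene called of the 33 tested cell cycle genes, whose median was -0.17.

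Other falls divided into those that CfzR had and those that it did not. CYB5A, the electron carrier cytochrome b5, was at 9.11 and 10.35 FPKM in WT and 0.07 FPKM in each BtzR library, and at 0 and 0.07 FPKM in CfzR. BCHE, butyrylcholinesterase, went from 6.24 and 6.32 FPKM to 0.02 and 0 FPKM, and PTPN7, a phosphatase of blood cells, from 6.69 and 4.64 FPKM to 0 and 0.04 FPKM, both listed at 0 in both CfzR libraries. TRAT1, an adaptor of the T cell receptor, APBA1, an adaptor of vesicle transport, and TIMD4, a phosphatidylserine receptor, fell by 3.0, 2.79 and 3.20 in BtzR and by 2.76, 2.88 and 2.87 in CfzR. In contrast LSP1, an actin-binding protein of leukocytes, was at 30.64 and 25.92 FPKM in WT, 2.02 and 2.04 FPKM in BtzR and 30.77 and 34.71 FPKM in CfzR. LY6H, a GPI-anchored protein, was at 12.94 and 19.84 FPKM in WT, 0.25 and 2.29 FPKM in BtzR and 88.95 and 103.73 FPKM in CfzR. It was lower in BtzR than in CfzR by 5.58 ± 0.37 (adjusted p = 7.8e-08), a larger difference than that of BtzR from WT.

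Some HLA class II genes, whose products present peptides to CD4+ T cells, fell in BtzR. Of 14 tested genes of the class II list, which includes the transactivator CIITA and the invariant chain CD74, 4 fell (against 1.27% of all tested genes) and none rose, and the median of the 14 was -0.91 against 0.00 over all genes. HLA-DRA fell from 191.2 and 177.67 FPKM to 69.97 and 98.02 FPKM (-1.14 ± 0.17, adjusted p = 2.8e-04) and HLA-DQA1 from 8.32 and 7.16 FPKM to 1.25 and 2.04 FPKM (-1.74 ± 0.16, adjusted p = 1.2e-06). HLA-DRB5 fell by 1.06 and HLA-DPB1 by 1.02. A further 5 had an adjusted p under 0.05 below the fold threshold, among them CIITA, at 7.45 and 8.4 FPKM in WT and 3.29 and 4.43 FPKM in BtzR (-0.88, adjusted p = 0.00269), and HLA-DQB1 at -0.99. CD74 was at 1248.16 and 1137.57 FPKM in WT and 649.23 and 901.18 FPKM in BtzR (-0.64, adjusted p = 0.0586). HLA-DRB genes are near copies, so the split between HLA-DRB1 (-0.36) and HLA-DRB5 is uncertain.

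The number of class II genes called depended on single libraries. It was 8 without BtzR replicate 2, the higher of the pair in every gene just named, and 1, HLA-DQA1, without BtzR replicate 1. The median was -1.03 and -0.71 in these fits, and 3 or 7 genes were called when a WT library was left out. In CfzR the median was -1.10 with 9 of 14 called lower (against 1.00% of all tested genes), and HLA-DRB1, higher in BtzR by 1.04, was the gene of the list called between BtzR and CfzR. In AMO1 12 of the 14 rose with bortezomib resistance (against 3.86% of all tested genes), with a median of 3.0, as for HLA-DRA by 2.98, while in RPMI-8226 the median was -1.42 and HLA-DRA fell by 5.85. The effect on HLA-DRA in L363 differed from that in AMO1 by -4.12 (adjusted p = 1.0e-08) and from that in RPMI-8226 by 4.70 (adjusted p = 1.0e-09).

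Class II promoters carry a Y box, an inverted CCAAT element bound by NF-Y that cooperates with RFX and CIITA. Its letters GATTGG were searched on both strands of the 250 bases before the start of each gene in RefSeq promoter windows of GRCh38.p14. They were found in 16.8% of 27305 genes and in 23.9% of the 8961 tested genes with a window. Among class II genes with a window they were found in 2 of 3 called lower, HLA-DRB5 and HLA-DPB1. They were also found in 5 of 9 genes of the list that have a window and were not called. Stretches around the matched letters are shown for those 2 genes, with the letters or their reverse complement in capitals. They lie at chr6:32530346-32530405 on the minus strand for HLA-DRB5 and at chr6:33075888-33075947 on the plus strand for HLA-DPB1. The match in HLA-DPB1 is the reverse complement, CCAATC, and so has the opposite orientation to that in HLA-DRB5. Whether it is the Y box was not tested.
HLA-DRB5: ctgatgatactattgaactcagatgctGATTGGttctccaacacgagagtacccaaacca
HLA-DPB1: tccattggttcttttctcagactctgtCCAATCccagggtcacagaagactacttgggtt
A match describes the letters of the window and no binding was measured.

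Some interferon-stimulated genes fell as well. Of 26 tested genes of that list 9 fell (against 1.27% of all tested genes) and none rose, and 16 had an adjusted p under 0.05 with a lower level in BtzR, against 13.1% of all tested genes in either direction. The median of the list was -0.70. IFITM1, a membrane protein that blocks viral entry, fell from 115 and 78.43 FPKM to 23.54 and 19.95 FPKM (-2.08 ± 0.30, adjusted p = 1.8e-04), and ISG15, a ubiquitin-like modifier, from 50.39 and 29.6 FPKM to 11.66 and 6.72 FPKM (-2.0 ± 0.37, adjusted p = 0.00166). MX1, an antiviral GTPase, fell from 50.59 and 41.28 FPKM to 17.63 and 15.02 FPKM (-1.43 ± 0.23, adjusted p = 5.3e-04). The neighbours SAMD9 and SAMD9L, antiviral and growth-restraining factors, fell by 1.43 and 1.46. OAS2 and OASL, of the double-stranded RNA sensing family, fell by 1.14 and 1.2, IFI6 by 1.13 and IFI44 by 1.16. The call of OASL was lost whichever of the 4 libraries was left out (-1.38 to -1.03) and that of IFI44 in 3 of these 4 fits (-1.25 to -0.91). STAT2 and IRF1, transcription factors of the interferon response, differed by -0.04 and -0.02 and were not called.

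WT replicate 1 was the higher WT library for ISG15, IFI6, IFI44, IFITM1, MX1, OAS2 and OASL. Without it 5 of the 9 genes were called, ISG15, IFITM1, MX1, SAMD9 and SAMD9L, and the median of the list was -0.60. Leaving out another library gave 7 or 8 genes lower. In CfzR the median was -0.63 with 6 of 26 called lower (against 1.00% of all tested genes). IFITM1 was the gene of this list called between BtzR and CfzR, since it was at 146.06 and 132.56 FPKM in CfzR. In AMO1 4 genes of the list rose and 5 fell with bortezomib resistance, with a median of -0.02, and in RPMI-8226 the median was -0.86.

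**Figure D4:**
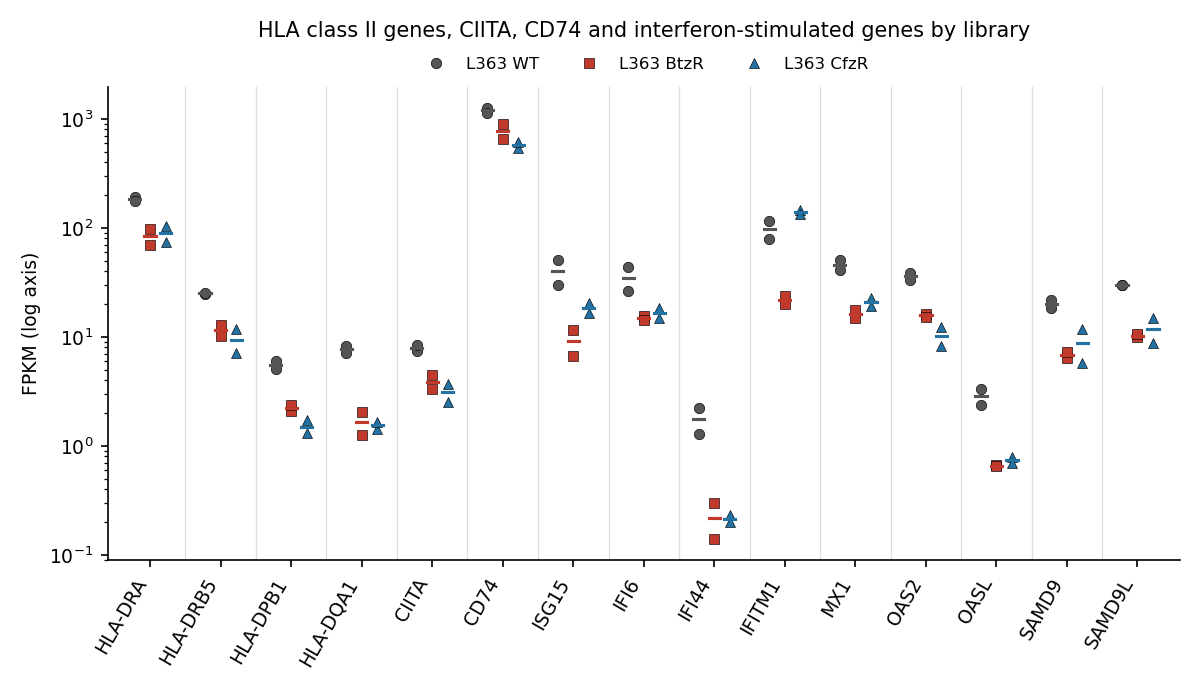
FPKM (log axis) of the called HLA class II genes, CIITA, CD74 and the 9 called interferon-stimulated genes, with 1 point for each library of L363 WT, BtzR and CfzR and a bar at the mean of the 2 replicates. Both BtzR libraries lie below both WT libraries in all 15 genes, and IFITM1 is the gene whose CfzR libraries, at 146.06 and 132.56 FPKM, lie above WT.

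Interferon acts through ISGF3, a transcription factor complex that binds the interferon-stimulated response element. The core of that element, searched as GAAA followed by any 2 bases and a further GAAA, was present, on either strand, in the 250 bases before the start of 3.71% of 27305 genes and of 3.11% of tested genes with a window. It was found in 6 of the 7 genes called lower that have a window (ISG15, IFI6, IFI44, IFITM1, MX1 and SAMD9). It was also found in 7 of 14 genes of the list that have a window and were not called. Stretches of 4 of the called genes are printed below to show the element beside their fall, with the matched letters in capitals. They lie at chr1:1013365-1013424 (plus strand) for ISG15, chr1:27672251-27672310 (minus) for IFI6, chr7:93118081-93118140 (minus) for SAMD9 and chr11:313975-314034 (plus) for IFITM1.
ISG15: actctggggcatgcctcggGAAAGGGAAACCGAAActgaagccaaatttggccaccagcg
IFI6: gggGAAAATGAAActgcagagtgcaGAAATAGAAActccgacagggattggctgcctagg
SAMD9: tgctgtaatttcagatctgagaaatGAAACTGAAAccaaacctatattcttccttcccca
IFITM1: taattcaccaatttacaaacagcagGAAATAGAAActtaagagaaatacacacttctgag
In ISG15 and IFI6 the stretch holds 2 copies, which overlap in ISG15, and in SAMD9 and IFITM1 it holds 1.

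A list of 12 surface genes was followed, some of which the study names in proteasome inhibitor resistance from these lines, so that it is no independent evidence of direction. Of these 10 were tested, 1 fell (against 1.27% of all tested genes) and none rose, and the median was 0.00. EVI2B, a leukocyte membrane protein, fell from 2.28 and 2.96 FPKM to 0 and 0.03 FPKM (-1.83 ± 0.15, adjusted p = 4.6e-07), and its neighbour EVI2A, at 0.92 and 1.15 FPKM in WT and 0.06 and 0.02 FPKM in BtzR, differed by -0.97, short of the threshold. The tetraspanin CD53 was at 88.93 and 92 FPKM in WT and 98.28 and 96.46 FPKM in BtzR (0.11 ± 0.16, adjusted p = 0.737). ITGB7, the integrin beta-7 chain, was at 131.34 and 112.91 FPKM and at 121.14 and 116.8 FPKM (-0.03 ± 0.23, adjusted p = 0.949), with overlap of the groups. ICAM3, the adhesion molecule CD50, was at 67.61 and 59.3 FPKM in WT and 107.96 and 84.47 FPKM in BtzR, a difference of 0.59 ± 0.14 (adjusted p = 0.0108) that was short of the fold threshold.

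CD53, ITGB7 and ICAM3 behaved otherwise in AMO1 and RPMI-8226, where each fell with bortezomib resistance. EVI2B fell there too, as it did in L363. The log2 differences in AMO1 and RPMI-8226 were -6.34 and -4.18 for CD53, -5.32 and -3.67 for ITGB7, -3.73 and -6.56 for EVI2B and -1.60 and -3.91 for ICAM3. Each of these effects differed from that in L363 with an adjusted p of 7.3e-06 or less. For EVI2B the fall in L363 started from a low WT level, which limits its size on this scale. CD151, a tetraspanin, differed by -0.26 in L363 and rose by 1.01 in RPMI-8226. CD99, an adhesion molecule, differed by 0.49 in L363 and rose by 1.01 in AMO1 and 1.24 in RPMI-8226. MME, the endopeptidase CD10, stayed under 1 FPKM in WT (0.76 in both) and BtzR (0.2 and 0.56) and was not tested, and it was at 4.05 and 5 FPKM in CfzR. ABCB1, the multidrug pump, was at 0.1 and 0 FPKM in WT and at 0.01 and 0.03 FPKM in BtzR, where it was likewise not tested, against 287.98 and 311.78 FPKM in CfzR.

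Of 27 tested surface targets in myeloma, 3 fell (against 1.27% of all tested genes) and none rose, and the median was -0.12. An adjusted p under 0.05 with a lower level in BtzR was found for 6, against 13.1% of all tested genes in either direction. GPRC5D, an orphan receptor targeted by T-cell engagers, fell from 59.1 and 51.39 FPKM to 29.22 and 21.42 FPKM (-1.11 ± 0.20, adjusted p = 0.00136). Without BtzR replicate 2 it differed by -0.89 and was not called. LILRB4, an inhibitory receptor, fell from 8.81 and 7.86 FPKM to 1.98 and 3.32 FPKM (-1.38 ± 0.23, adjusted p = 6.2e-04), and IL6R, the interleukin-6 receptor, from 13.45 and 11.56 FPKM to 5.35 and 5.97 FPKM (-1.02 ± 0.14, adjusted p = 1.0e-04), a call that was lost without BtzR replicate 1 (-0.95) or WT replicate 1 (-0.92). In CfzR GPRC5D was at 92.81 and 107.86 FPKM and IL6R at 19.75 and 22.58 FPKM, and both were lower in BtzR than in CfzR, by 1.96 and 1.73. TNFRSF17, which encodes BCMA, was at 164.85 and 146.76 FPKM in WT and 100.92 and 102.59 FPKM in BtzR (-0.61, adjusted p = 0.0096). SDC1 differed by -0.08, CD38 by -0.06 and SLAMF7 by -0.14, and CD46, a complement regulator, by 0.83 (adjusted p = 4.2e-04), none of them called.

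Other lists had few genes called, beside 1.23% of all tested genes called higher and 1.27% called lower. Of 20 tested plasma cell and B-cell transcription factors 1 fell, KLF2, a factor of lymphocyte quiescence and homing, from 9.68 and 9.92 FPKM to 0.96 and 1.44 FPKM (-2.30 ± 0.22, adjusted p = 2.1e-06), while it was at 13.47 and 20.77 FPKM in CfzR. CCL3, a chemokine, fell by 1.93. SELPLG, the selectin ligand PSGL-1, fell from 72.28 and 71.02 FPKM to 37.54 and 32.18 FPKM (-1.02 ± 0.12, adjusted p = 1.4e-05) among 15 tested integrin and adhesion genes, a call lost without BtzR replicate 2 (-0.91). AHNAK, a large scaffold under the membrane, fell by 1.5 among 15 tested S100, annexin and galectin genes and was at 16.45 and 27.03 FPKM in CfzR against 2.58 and 3.15 FPKM in BtzR. STC2, a secreted glycoprotein induced by ATF4, fell by 1.41 among 17 tested ATF4 targets, a call lost without BtzR replicate 1 (-1.25, adjusted p = 0.103) or WT replicate 2 (-1.16, adjusted p = 0.124). GABARAPL1, which builds autophagosomes, rose by 1.44 among 18 tested autophagy genes. It lies on chromosome 12 past the run that ends at NECAP1. The tested genes around it, CLEC2B, CLEC7A, KLRD1, MAGOHB and YBX3, differed by 0.93, 0.93, 0.09, 0.60 and 0.89. ABCG1, a cholesterol exporter, rose by 1.02 among 19 tested ABC transporters, a call lost without WT replicate 1 (0.96).

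No gene was called in the lists of cytosolic chaperones (15 tested, median -0.05), ER folding and unfolded protein response (27, -0.08), serine synthesis and one-carbon metabolism (13, -0.33), NRF2 and glutathione (19, -0.09), glycolysis (22, 0.07) and cholesterol synthesis (23, -0.04). The same was so of HLA class I and peptide loading (15, -0.20), the BCL2 family (13, -0.37), tetraspanins (13, -0.04) and RAS-MAPK output (10, 0.23). The median of all tested genes was 0.00. HSPA1A, an inducible chaperone, was at 23.31 and 30.9 FPKM in WT and 13.56 and 14.74 FPKM in BtzR (-0.88, adjusted p = 0.0696). None of the chaperone and unfolded protein response genes was thus called in BtzR cells, which were grown in bortezomib. Whether the drug was still present at harvest is not stated in the sources used here. A change under the fold threshold cannot be told from none by these calls.

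Markers of other blood and tissue cells were low. Summed over each list, B-cell markers reached 10.3 to 11.5 FPKM in WT and 18.4 to 23.2 FPKM in BtzR. There 1 of 2 tested genes rose, CD79B, a B-cell receptor chain also present in plasma cells, by 1.01. The other, CD79A, went the other way by -0.53 (adjusted p under 0.05), short of the fold threshold. T-cell markers summed to 9.37 to 9.40 FPKM in WT and 1.00 to 2.18 FPKM in BtzR through TRAT1, with CD3D listed at 0 in all 4 libraries. Natural killer cell markers summed to 2.86 to 3.82 FPKM with NKG7, GNLY and GZMB listed at 0, and monocyte markers to 5.13 to 5.62 FPKM with CD163 and S100A9 listed at 0. Epithelial markers summed to 2.34 to 4.81 FPKM. Of these CDH1 fell by 1.56, while KRT8 and KRT18 differed by 0.28 and 0.24 and were not called. The granulocyte, erythroid, fibroblast and endothelial lists summed to 1.02 FPKM or less.

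In all, 63 called genes neighboured another called gene in RefSeq order, a count that includes neighbours inside the runs. The number expected without clustering was not computed. Some of these neighbours lay outside the long runs. On chromosome 16 SPN, the leukocyte sialomucin CD43, fell from 11.48 and 11.22 FPKM to 1.45 and 1.64 FPKM (-2.28 ± 0.13, adjusted p = 7.0e-09) and its neighbour QPRT, an enzyme of NAD synthesis, by 1.91, while QPRT rose in CfzR by 1.07. On chromosome 2 CALCRL, the receptor of adrenomedullin, fell from 3.21 and 4.96 FPKM to 0 and 0.02 FPKM and GULP1, an engulfment adaptor, by 2.03. KLF13, a transcription factor, and its neighbour LOC283710 fell by 1.25 and 1.92 on chromosome 15. On chromosome 19 the zinc finger genes ZNF253 and ZNF93, members of a family of near copies, rose by 2.06 and 1.56. MPC1, a subunit of the mitochondrial pyruvate carrier, and RNASET2, a secreted ribonuclease, rose by 1.04 and 1.30 on chromosome 6, though either call was lost without BtzR replicate 1. The neighbours CHDH, a choline oxidase, and IL17RB, a cytokine receptor, rose by 1.30 and 1.21 on chromosome 3, where GCSAM, a germinal centre protein, and C3orf52 fell by 1.64 and 1.67. On chromosome 5 the pair moved in opposite directions, NIPAL4 by 1.71 and CYFIP2 by -1.0 (-0.86 and not called without BtzR replicate 1), and on chromosome 17 UTS2R, a peptide receptor, rose by 1.19 beside TEX19.

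Most genes called in L363 BtzR were not called in the same direction in AMO1 BtzR or RPMI-8226 BtzR, which share no library with them. In AMO1 417 of the tested genes were higher (3.86%) and 449 lower (4.16%), or 8.02% in all, and in RPMI-8226 543 (5.03%) and 637 (5.90%), or 10.9%. Of the 133 genes higher in L363, 16 were higher in AMO1, which is 12% of the L363 genes and 3.84% of those of AMO1, and 17 were higher in RPMI-8226 (12.8% and 3.13%). Another 15 and 20 were lower there. Of the 137 genes lower in L363, 25 were lower in AMO1 (18.2% and 5.57%) and 51 in RPMI-8226 (37.2% and 8.01%), while 21 and 11 were higher. The effect itself differed from that in AMO1 for 205 of the 270 called genes and from that in RPMI-8226 for 193, and for 148 from both. These genes were chosen for an effect of at least 1 in L363, which makes such a difference likely where the other line does not change, and the counts are a description.

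Genes higher in the bortezomib-resistant cells of L363, AMO1 and RPMI-8226 were CDH24 and BTBD3, and 12 were lower in these 3 lines. The latter were CTSS, DNAJC12, EVI2B, GPRC5D, HLA-DQA2, HRASLS2, KLF2, LILRB4, OAS2, PBDC1, PDLIM1 and SAMD9L, of which those outside the lists above were named after their values had been seen. In ARH-77, with 60 genes called higher and 45 lower, none of these 2 and 12 genes was called in the same direction. CTSS, the lysosomal protease cathepsin S of class II antigen processing, was at 3.67 and 2.87 FPKM in L363 WT and 0.70 and 0.71 FPKM in L363 BtzR (-1.32), and fell by 2.49 in AMO1 and 3.49 in RPMI-8226. HLA-DQA2 fell by 1.34 in L363 and by 3.61 and 1.13 in AMO1 and RPMI-8226. BTBD3 was at 2.51 and 2.27 FPKM in L363 WT and 5.69 and 6.24 FPKM in L363 BtzR.

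**Figure D5:**
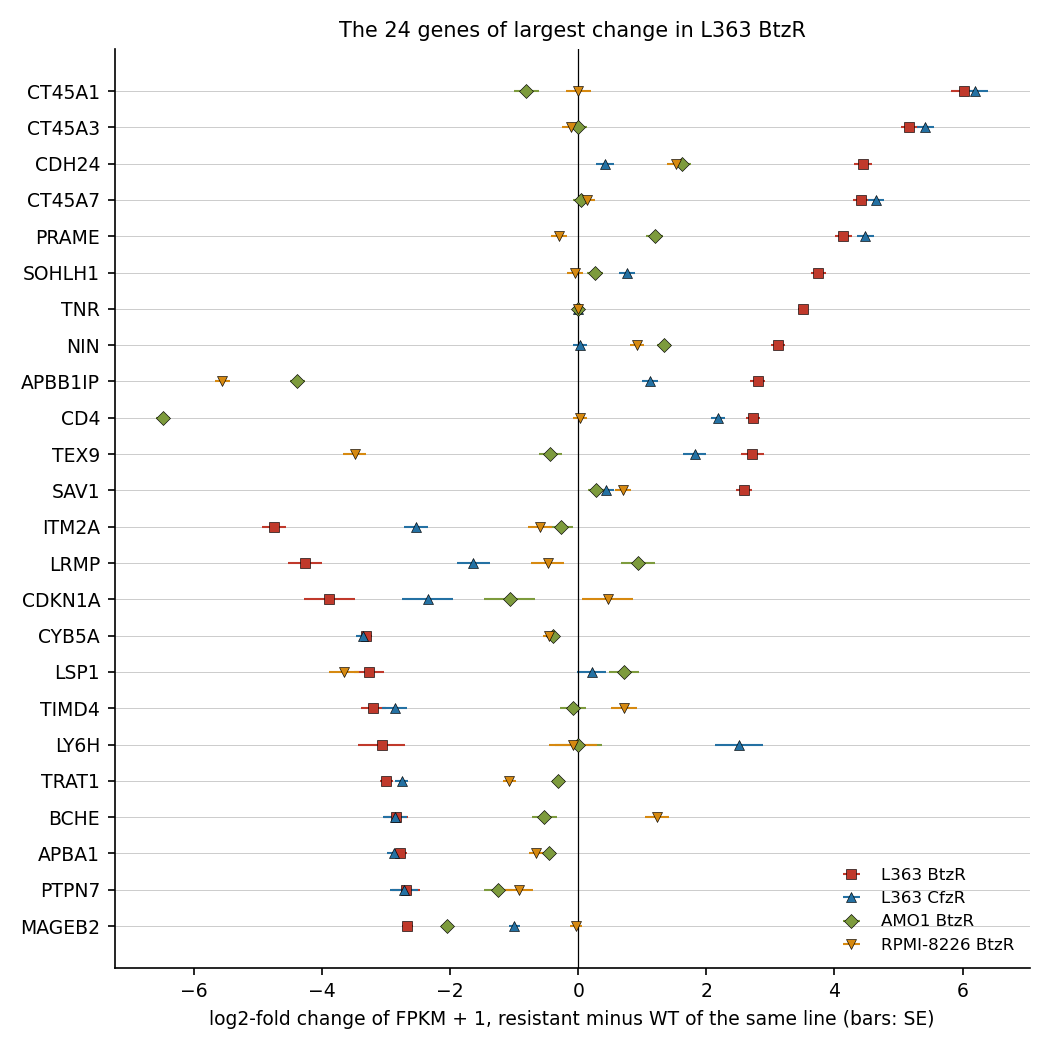
Log2-fold change of FPKM + 1, resistant minus WT of the same line, for the 12 genes with the largest rise and the 12 with the largest fall in L363 BtzR, with bars of 1 SE. CT45A1, CT45A3, CT45A7 and PRAME lie between 4.14 and 6.20 in both L363 derivatives, while CDH24 lies at 4.45 in L363 BtzR, 0.41 in L363 CfzR, 1.62 in AMO1 BtzR and 1.52 in RPMI-8226 BtzR.

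BtzR and CfzR cells of L363 were last compared with each other. Of the tested genes 71 were higher in BtzR (0.657%) and 96 lower (0.889%). Of the 133 genes higher in BtzR than in WT, 51 were also higher than in CfzR, and of the 137 lower, 39 were also lower than in CfzR. Both comparisons use the same BtzR libraries, which favours a shared direction, so these counts are a description. Side by side, and with the same WT libraries in both comparisons, 48 of the 133 were called higher and 68 of the 137 lower in CfzR against WT. Genes called higher by this direct test included 27 genes of the runs of chromosome 14, PSMB5 among them, TNR at 3.53 ± 0.08 and SOHLH1 at 2.99, and those called lower included LY6H, LSP1, KLF2, QPRT, IFITM1, AHNAK, GPRC5D and IL6R. QPRT was lower in BtzR than in CfzR by 2.98 ± 0.16 (adjusted p = 1.1e-08), KLF2 by 3.02 and LSP1 by 3.47. By contrast the CT45 genes, PRAME, the lower run of chromosome X, HLA class II genes and most interferon-stimulated genes were mostly not called between the derivatives, and with 2 libraries in each group a small difference between them cannot be told from none.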

How the data were processed

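RNA was extracted from frozen pellets, and libraries were made and sequenced on the BGISEQ-500 platform by BGI. The authors deposited 1 table of FPKM per gene for 18305 genes in 20 libraries, and the submitters' processing notes name HISAT2 2.0.4, Bowtie2 2.2.5 and RSEM 1.2.12. The genome build is not given in the sources used here, and 0 columns were left unmapped. The depth of the libraries is unknown, and no interval or floor that needs counts is given.

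From the deposited FPKM, log2(FPKM + 1) of genes with a mean of at least 1 FPKM in L363 WT or L363 BtzR (10801 genes) was fitted with limma 3.58.1 in R 4.3.3, with 1 mean for each of 10 groups over all 20 libraries (10 residual degrees of freedom), a mean-variance trend and two-sided moderated tests. P-values were adjusted by Benjamini-Hochberg over all tested genes. Differences of effects between lines were contrasts of the same fit. The replicates are named biological replicates without a statement of separate derivations, so p-values measure the spread between these libraries. For 2 against 2 libraries an exact permutation test of 1 gene cannot go below p = 0.33, and none is given.

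Genes named were the 12 largest changes and the 3 most abundant called genes in each direction, called members of the pathway lists, 12 set genes (surface proteins, a drug pump and catalytic proteasome subunits), and called genes next to another called gene. Members and lists were chosen with earlier results of these data known. Gene order, chromosomes and promoter windows came from RefSeq (GRCh38.p14), which placed 10793 of the tested genes, and 25 symbols that had been turned into dates were restored. The fit was tested on simulated data of the L363 BtzR and WT comparison, with 10621 genes. It recovered 100 of 100 log2 changes of 1.5 and 100 of 100 of 2, with their sign, and made 0 false calls. Changed genes were drawn from those well above the filter in L363 WT, and all other genes had no change. Such a simulation says nothing of calls near the fold threshold or of genes near the filter. ARH-77 was compared after the values of the other lines had been seen. Alternatives covered the filter, pseudocount, scaling, samples in the fit, replicate block and each library left out. Some genes are not reported here.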

Additional observations from a re-analysis of the deposited data

Results flagged for a closer look

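The change with bortezomib resistance was compared between L363 and another line for genes of largest change, surface genes and PSMB5, PSMB6 and PSMB7. It differed for many of the first and some of the second. Of 34 such genes 28 differed from AMO1 and 29 from RPMI-8226 (against 10.5% and 12.6% of all tested genes), by limma's test of the difference of effects (adjusted p under 0.05, at least 1 on the log2 scale). Of these 34 genes 24 were chosen for their large change in L363, which favours such a difference, so the counts are a description. Values are the log2 effect in L363 minus that in the other line.

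Germ line genes and TNR rose more in L363 than in AMO1, with differences of CT45A1 6.83, CT45A3 5.17, CT45A7 4.38, PRAME 2.95, SOHLH1 3.49, TEX9 3.16 and TNR 3.51. Against RPMI-8226 the differences were CT45A1 6.02, CT45A3 5.29, CT45A7 4.27, PRAME 4.44, SOHLH1 3.80, TEX9 6.21 and TNR 3.51. Genes of the chromosome 14 runs, the integrin adaptor APBB1IP and the coreceptor CD4 differed from AMO1 by CDH24 2.83, NIN 1.78, SAV1 2.31, APBB1IP 7.19 and CD4 9.21. From RPMI-8226 they differed by CDH24 2.93, NIN 2.2, SAV1 1.89, APBB1IP 8.36 and CD4 2.70.

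Genes with the largest falls differed from AMO1 by ITM2A -4.48, LRMP -5.20, CDKN1A -2.82, CYB5A -2.92, TIMD4 -3.12, LY6H -3.07, TRAT1 -2.70, BCHE -2.32, APBA1 -2.33, PTPN7 -1.44 and LSP1 -3.98. The differences from RPMI-8226 were ITM2A -4.14, LRMP -3.79, CDKN1A -4.35, CYB5A -2.87, TIMD4 -3.91, LY6H -2.99, TRAT1 -1.93, BCHE -4.08, APBA1 -2.12, PTPN7 -1.76 and MAGEB2 -2.63. The filter asked for expression in L363 only, and a gene with little expression in the other line could not fall there. LY6H had effects of 0.00 in AMO1 and -0.08 in RPMI-8226, and MAGEB2 of -0.04 in RPMI-8226. In AMO1 PTPN7 had an effect of -1.25 and CDKN1A of -1.07. These differences are therefore not read as a response particular to L363.

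Leukocyte surface genes that fell in AMO1 and RPMI-8226 had smaller log2 differences in L363 (EVI2B -1.83, EVI2A -0.97) or no fall that was called (CD53 0.11, ITGB7 -0.03, ICAM3 0.59). EVI2B and EVI2A started from low levels in L363 WT and were close to the floor in BtzR. Adding 1 FPKM limits how far such genes can fall, so their smaller differences do not show a weaker loss. With a pseudocount of 0.01 EVI2A differed by -4.50 in L363. The differences from AMO1 were CD53 6.44, EVI2B 1.90, EVI2A 3.19, ICAM3 2.18 and ITGB7 5.28. Those from RPMI-8226 were CD53 4.28, EVI2B 4.73, EVI2A 4.27, ICAM3 4.49 and ITGB7 3.64. CD151 differed from RPMI-8226 by -1.27.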

How the results depend on the processing

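With a pseudocount of 0.1 FPKM 422 genes were called between BtzR and WT (216 higher, 206 lower) in place of 270, and 260 in place of 167 between BtzR and CfzR. A filter of 5 FPKM, which tested 8363 genes, left 180 and 101. The other alternatives gave 227 (outside the runs, added after seeing the data) to 380 genes for BtzR against WT, and 259 to 269 when each library was left out in turn. For BtzR against CfzR leaving out a library gave 158 to 171, for the difference from AMO1 1101 to 1187 and for that from RPMI-8226 1333 to 1434. Rescaling each library to an equal sum moved the median of the difference from AMO1 to 0.12, and its calls from 562 higher and 576 lower to 854 and 558.

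Replicates share a number, but their deviations correlated with r = 0.239 over genes in a single pair of groups and nothing says that a number marks a shared culture. A replicate block gave 271, 168, 1143 and 1369 genes in place of 270, 167, 1138 and 1360. Over named genes and run medians, 1838 values under alternatives kept their direction and side of the threshold, 61 lost the call, 4 gained it and 0 reversed. With 2 libraries a group and 1 resistant line, and with FPKM that give no depth, p-values measure only the spread between these libraries, and changes under the fold threshold were not counted as calls.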
